A study of Mus musculus with 14 samples.

Results

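Churc1, Shroom3, Synpo, Meig1, Fkbp2, Gm16030 and Abhd17c are described here in mouse hearts, 7 of 13023 genes tested and of 54532 genes in the files. They were chosen by their CPM (counts per 1000000 counts of a library) in 8 hearts, in which the 4 libraries labelled YG8800 Mutant do not overlap the 4 labelled YG8800 Control. Such a gap in CPM held for 500 genes, 1.46% of all tested with Mutant higher and 2.38% with Mutant lower. The 7 genes were then read in the KIKO-700 hearts. The gap does not use those hearts, but the 7 were picked among the 500 with earlier results of these data known. All 7 passed the filter on low counts. The values of the YG8800 libraries that made the choice are given below as a description, with no test.

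The study used hearts of mouse models of Friedreich ataxia, a disease in which an expanded repeat in the first intron of one gene lowers the amount of a mitochondrial protein. KIKO-700 mice (knock-in, knockout) carry that expansion in one allele of the mouse gene and a deletion of the other, and they were read as 3 males (KIKO_M) and 3 females (KIKO_F). YG8800 Mutant mice (4 libraries, labelled with the name of the line) are homozygous for a null allele of the mouse gene and hemizygous for a human transgene with an expanded repeat. YG8800 Control mice (4 libraries, labelled WT for that line) are littermates with the mouse gene and no human transgene. The labels give the strain of all 14 mice as C57BL/6, the tissue as heart and the age as postnatal day 180, whereas the methods of the study give 18 months. KIKO-700 littermates without the mutation were not analysed here, so the KIKO-700 hearts are set only against the YG8800 hearts, and mouse line, cohort and any batch of libraries cannot be told apart in that comparison. Each library is 1 mouse heart as far as the labels tell.

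The libraries hold 5226233 to 11650840 counts each, from the 3′ ends of polyadenylated RNA. Values are CPM after scaling by the trimmed mean of M-values (TMM). All defining cardiomyocyte markers were present, with a summed level of 23750 to 29210 CPM in KIKO-700, 20790 to 31390 CPM in YG8800 Mutant and 15550 to 32740 CPM in YG8800 Control. The study speaks of males for the YG8800 line. Xist, the RNA of the inactive X chromosome of females, stood at 38.0 to 52.7 CPM in 5 of its 8 libraries (Mutant 1 and 3, Control 1, 2 and 4) and at 0 to 0.328 CPM in the other 3. The KIKO-700 libraries matched their labelled sex. The null allele of the YG8800 line lacks an early exon and these libraries read the 3′ end, so the targeted gene does not check the genotype labels. Its values are not reported here, but 4 of 4 libraries labelled Mutant and 6 of 6 KIKO-700 libraries lay above every library labelled Control. Whether the YG8800 labels stand for the genotypes is therefore not settled, and every direction below is that of the libraries as labelled.

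The 7 genes do not belong to one pathway. Synpo (synaptopodin) and Shroom3 encode proteins that bind actin filaments. Synaptopodin is known from the foot processes of kidney podocytes and from dendritic spines, where it binds α-actinin, and Shroom3 recruits the kinases Rock1 and Rock2 to shape epithelial cells. Fkbp2 encodes an FK506-binding prolyl isomerase of the endoplasmic reticulum, an enzyme class that helps proteins fold. Abhd17c encodes a serine hydrolase that takes palmitate off membrane-bound proteins. Churc1 encodes a small zinc-binding protein known as a transcriptional activator in chick embryos. Meig1 is known for its role in building the sperm tail in mice. Gm16030 is annotated as a processed pseudogene, a copy of a spliced transcript set back into the genome.

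The sequences below belong to what follows, since they show what the counts can and cannot separate. Gm16030 lies on chromosome 15 of GRCm38 from 7341914 to 7342516, on the plus strand, inside Egflam, which is on the other strand. Its 603 bases aligned to the coding part of the transcript of Fkbp3, an FK506-binding protein of the nucleus, with 511 of 598 aligned bases identical (85.45%). The closest stretch of 1 read length (86 bases) is shown for both, 5′ to 3′, with the 7 bases that differ in capitals, from chr15:7342213-7342298 of Gm16030 and from positions 447 to 532 of the Fkbp3 transcript.
Gm16030: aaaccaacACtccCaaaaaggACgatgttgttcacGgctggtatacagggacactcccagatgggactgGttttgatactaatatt
Fkbp3: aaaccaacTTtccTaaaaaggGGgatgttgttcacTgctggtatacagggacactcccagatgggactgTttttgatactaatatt
The longest run of identical bases was 33, shorter than a read, so a full-length read without errors can be placed on one of the 2 genes.

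Churc1 (chromosome 12, 76765538 to 76783180, plus strand) overlaps Fntb, a subunit of protein farnesyltransferase, which begins on the same strand at 76765589. The RefSeq promoter of Churc1, chr12:76765288-76765587 on GRCm38.p6, thus ends just before the annotated start of Fntb. It is shown because the counts of Churc1 and Fntb differ as described below, with its GC box (GGGCGG on either strand) in capitals.
Churc1 promoter: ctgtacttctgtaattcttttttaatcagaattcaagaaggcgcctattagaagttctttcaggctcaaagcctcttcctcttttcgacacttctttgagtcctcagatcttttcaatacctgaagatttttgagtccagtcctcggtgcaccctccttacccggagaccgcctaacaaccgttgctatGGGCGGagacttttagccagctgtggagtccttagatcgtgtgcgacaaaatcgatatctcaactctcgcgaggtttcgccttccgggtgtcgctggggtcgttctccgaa
The start of Abhd17c (chromosome 7, 84109356 to 84151893, minus strand) lies near that of the noncoding Gm26708, annotated as a transcript of a bidirectional promoter that begins on the other strand at 84152140. Its promoter, chr7:84151844-84152143 on the minus strand, holds 6 GC boxes in capitals, of which the first pair overlaps by 1 base.
Abhd17c promoter: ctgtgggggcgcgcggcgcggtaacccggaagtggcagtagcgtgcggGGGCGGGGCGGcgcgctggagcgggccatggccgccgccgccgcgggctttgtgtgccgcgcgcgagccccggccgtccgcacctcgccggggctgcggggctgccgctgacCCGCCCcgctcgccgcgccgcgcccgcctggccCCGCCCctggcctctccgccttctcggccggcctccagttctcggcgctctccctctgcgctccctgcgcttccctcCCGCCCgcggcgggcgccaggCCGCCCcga
A GC box stands in 35.66% of the 32851 RefSeq promoters of this length. Neither of the 2 promoters holds a CCAAT box (CCAAT, 37.41% of promoters) or a TATA box (TATAAA, 13.62%) on either strand. These are matches of letters, not binding sites.

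The first question was where the KIKO-700 hearts lie for these genes. Synpo was far higher in KIKO-700 hearts than in either YG8800 group. Abhd17c and Gm16030 lay within the YG8800 Control range in all 6 KIKO-700 hearts. Shroom3 fell in the gap between the YG8800 groups in all 6. Churc1 lay below every Mutant heart in all 6 but differed widely between them, and Meig1 and Fkbp2 spread from the Control side to the Mutant side. The plot of values by library shows all 14 hearts for each gene. Fold changes were also taken against the mean of the 2 YG8800 groups. The genes were chosen for a gap between those groups, so a KIKO-700 level at that of either group differs from their mean by a part of the gap itself. For genes whose KIKO-700 hearts lie at the Control level this fold change therefore draws on the values that chose them, and it is given with no test.

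**Figure D1:**
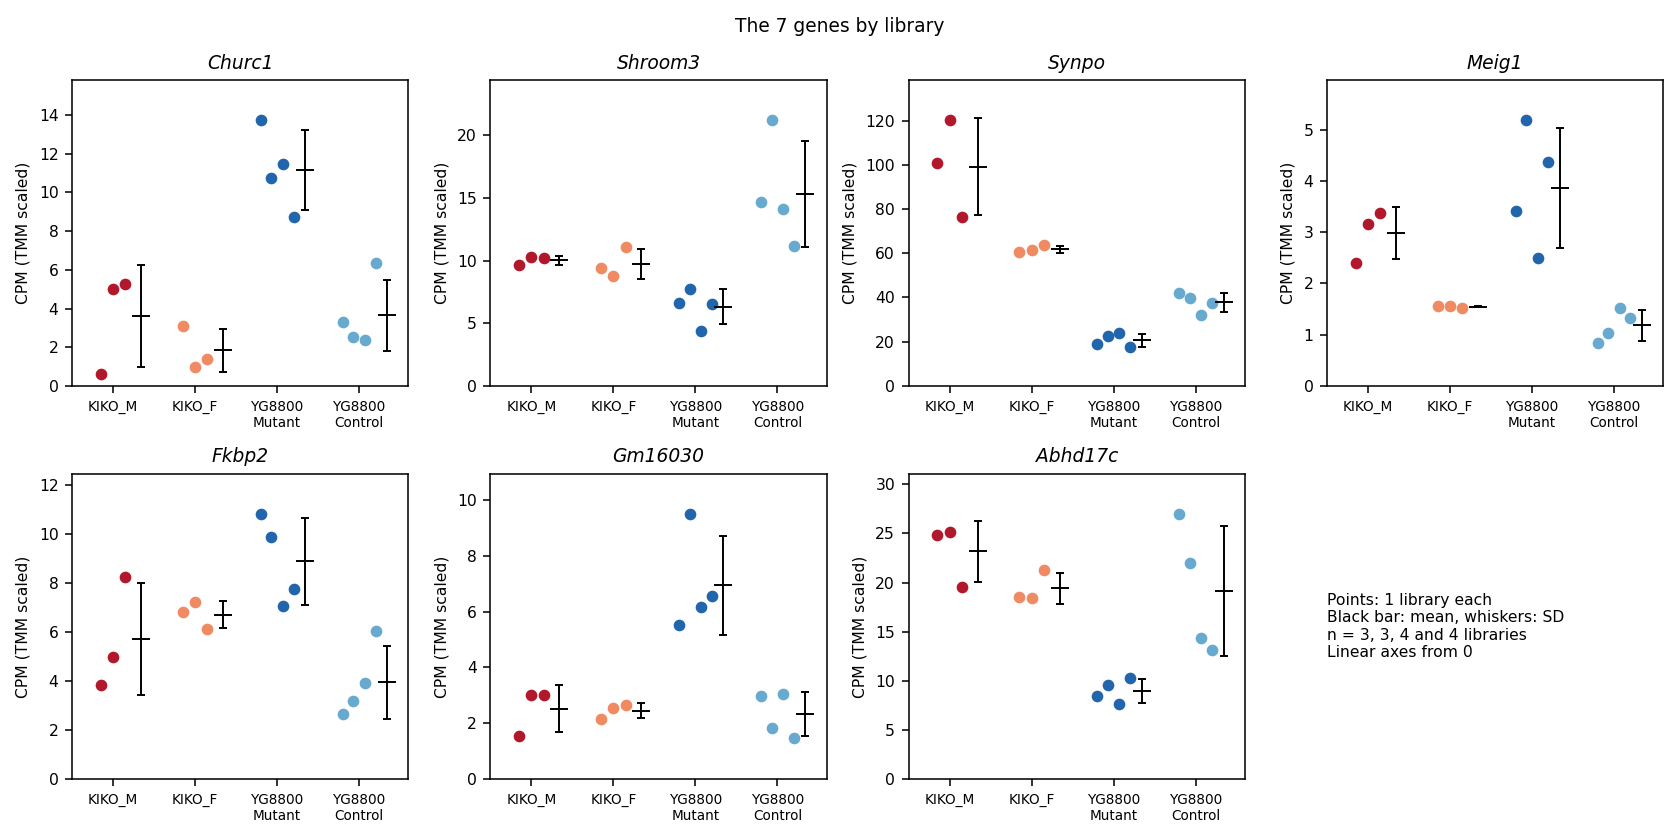
CPM of the 7 genes in each library (points, linear axes from 0), with the mean and SD beside them, for KIKO_M and KIKO_F (n = 3 each) and YG8800 Mutant and YG8800 Control (n = 4 each). Synpo is above both YG8800 groups in all 6 KIKO-700 libraries, at 60.6 to 120.2 CPM, and Churc1 runs from 0.601 to 5.25 CPM among them.

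Synpo (chromosome 18, 60593973 to 60660142, minus strand) had 100.7, 120.2 and 76.6 CPM in KIKO_M hearts and 60.6, 61.3 and 63.7 CPM in KIKO_F hearts. It had 19.0, 22.6, 23.8 and 17.6 CPM in YG8800 Mutant hearts and 42.1, 39.6, 31.9 and 37.3 CPM in YG8800 Control hearts. The lowest KIKO-700 heart was thus above the highest of the 8 YG8800 hearts, and the Mutant hearts were the lowest of all. A separation of the 6 from the 8 hearts held for 11.0% of all genes tested, 6.70% with KIKO-700 higher, and among the 7 genes for Synpo alone. The log2 fold change of KIKO-700 over the mean of the 2 YG8800 groups was 1.48 (SE 0.15). It is given with no test, since a part of it is the gap that chose the gene. Against each group on its own it was 1.92 (SE 0.19) over Mutant and 1.05 (SE 0.18) over Control, given as a description. In the KIKO-700 hearts the 3 males were above the 3 females. The log2 fold change of KIKO_M over KIKO_F was 0.68 (SE 0.22) at an unadjusted p of 0.00595 in edgeR, and it did not pass the threshold after adjustment over all genes (adjusted p = 0.9999).

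Shroom3 (chromosome 5, 92683435 to 92965318, plus strand) had 9.62, 10.3 and 10.2 CPM in KIKO_M hearts and 9.42, 8.77 and 11.1 CPM in KIKO_F hearts. It had 6.62, 7.78, 4.41 and 6.55 CPM in YG8800 Mutant hearts and 14.7, 21.2, 14.1 and 11.2 CPM in YG8800 Control hearts. All 6 KIKO-700 hearts lay between 7.78 CPM, the highest Mutant heart, and 11.2 CPM, the lowest Control heart. This placement rests on the scaling, since with library size alone 5 of the 6 lay inside the Control range, and with RLE factors 1 did. The KIKO-700 hearts differed little among themselves, with the highest at 1.26 times the lowest. Their SD within the sexes was 0.12 on the log2 scale, below that of most genes of a like level (10.48% of 4343 genes within 2-fold of its level had a smaller one). Against the mean of the YG8800 groups the log2 fold change was 0.00 (SE 0.20, 95% interval −0.43 to 0.43), which places it midway between them. The annotated genes that lie within Shroom3, Gm20500, Mir1961 and 4932430I15Rik, had no count in any library.

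The families of these 2 genes and their actin-linked partners were read as a list of 14 genes, of which 13 were tested. Synpo and Shroom3 were chosen by the YG8800 values and are not counted here. Of the others, Shroom4, Synpo2l, Actn1 and Actn2 were higher and 3 genes lower in KIKO-700 over the mean of the YG8800 groups in edgeR's test. Of all genes, 17.2% were higher and 19.1% lower. The median log2 fold change of the 13 tested genes was 0.03, and that of all genes −0.04. The higher genes with the smallest p were Shroom4 at 1.17 (SE 0.22, adjusted p = 0.000593), a further member of the Shroom family, Synpo2l at 0.92 (SE 0.19, adjusted p = 0.00125), a synaptopodin relative of the muscle Z-disc, and Actn1 at 0.79 (SE 0.19, adjusted p = 0.00418), an α-actinin. Synpo2, the other relative, had 21.7 CPM in KIKO-700 and 26.6 CPM in the YG8800 hearts and did not pass the threshold (adjusted p = 0.177). The kinases Rock1 and Rock2, with which Shroom proteins act, were lower, at −0.58 (SE 0.22, adjusted p = 0.0468) and −0.55 (SE 0.21, adjusted p = 0.0454) (both named with their values known).

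Abhd17c had 24.8, 25.1 and 19.6 CPM in KIKO_M hearts and 18.5, 18.4 and 21.3 CPM in KIKO_F hearts. It had 8.42, 9.63, 7.64 and 10.3 CPM in YG8800 Mutant hearts and 27.01, 22.02, 14.35 and 13.12 CPM in YG8800 Control hearts. All 6 KIKO-700 hearts lay inside the Control range and above every Mutant heart. The log2 fold change of KIKO-700 was 1.23 (SE 0.22) over Mutant and 0.14 (SE 0.21) over Control. Over the mean of both groups it was 0.69 (SE 0.17). Gm26708, which begins in the promoter shown above, had counts in 1 KIKO-700 library only, at 0.127 CPM. In KIKO_M over KIKO_F the log2 fold change of Abhd17c was 0.26 (SE 0.26, 95% interval −0.29 to 0.80).

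Of 9 protein depalmitoylases 8 were tested, among them Abhd17c, which the YG8800 values chose and which is not counted here. Of the others, only Lypla2 was higher and only Abhd10 lower in KIKO-700 than in the mean of the YG8800 groups. The shares over all genes are the same 17.2% and 19.1%. Lypla2, a cytosolic acyl-protein thioesterase, had 24.8 to 42.2 CPM in KIKO-700 and 5.80 to 18.4 CPM in the YG8800 hearts, a log2 fold change of 1.47 (SE 0.19, adjusted p = 3.49e-05). Abhd10, a mitochondrial depalmitoylase, was lower at −0.58 (SE 0.21, adjusted p = 0.0376). The closest relatives of Abhd17c did not pass the threshold. Abhd17a had 8.44 CPM in KIKO-700 and 7.57 CPM in the YG8800 hearts, and Abhd17b had 7.46 CPM in KIKO-700 and 9.96 CPM in the YG8800 hearts. The median log2 fold change of the 8 genes was −0.33.

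Fkbp2 (chromosome 19, 6977741 to 6980501, minus strand) had 3.85, 4.998 and 8.25 CPM in KIKO_M hearts and 6.80, 7.22 and 6.11 CPM in KIKO_F hearts. It had 10.8, 9.88, 7.05 and 7.75 CPM in YG8800 Mutant hearts and 2.65, 3.19, 3.91 and 6.04 CPM in YG8800 Control hearts. Of the 6 KIKO-700 hearts, 2 lay inside the Mutant range, 2 inside the Control range and 2 in the gap between 6.04 and 7.05 CPM. With library size alone 4 lay inside the Mutant range. The log2 fold change against the mean of the YG8800 groups was 0.08 (SE 0.22, 95% interval −0.38 to 0.54). Among the tested neighbours of Fkbp2 only Vegfb, a growth factor gene upstream on the same strand, passed the threshold in edgeR. Vegfb was higher in KIKO-700 at 0.72 (SE 0.15, adjusted p = 0.00147).

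Gm16030 had 1.56, 3.02 and 3.00 CPM in KIKO_M hearts and 2.15, 2.55 and 2.67 CPM in KIKO_F hearts. It had 5.51, 9.51, 6.17 and 6.55 CPM in YG8800 Mutant hearts and 2.96, 1.84, 3.04 and 1.47 CPM in YG8800 Control hearts. All 6 KIKO-700 hearts lay inside the Control range, and with upper-quartile factors 5 of them did. On the log2 scale the fold change of KIKO-700 was −1.47 (SE 0.27) over Mutant and 0.12 (SE 0.30) over Control. Over the mean of both groups it was −0.67 (SE 0.25).

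Fkbp3, the gene whose transcript Gm16030 resembles, had 85.6, 100.9 and 98.7 CPM in KIKO_M hearts and 106.4, 95.5 and 99.3 CPM in KIKO_F hearts. It had 164.3, 249.2, 178.2 and 190.9 CPM in YG8800 Mutant hearts and 152.1, 114.8, 235.0 and 98.2 CPM in YG8800 Control hearts. Fkbp3 was lower in KIKO-700 at −0.81 (log2, SE 0.19, edgeR adjusted p = 0.00287). The level of Gm16030 as a share of that of Fkbp3 was 1.83% to 3.04% in KIKO-700 and 3.36% to 3.81% in Mutant, against 1.295% to 1.95% in Control. As the plot of both genes shows, Control 3 had 235.0 CPM of Fkbp3, within the Mutant range of 164.3 to 249.2 CPM. Its 3.04 CPM of Gm16030, the highest Control value, lay below every Mutant heart. Egflam, a matrix protein gene on the other strand across Gm16030, was higher in KIKO-700 at 0.89 (SE 0.22, adjusted p = 0.00473). The methods of the study state that strand was used in counting.

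**Figure D2:**
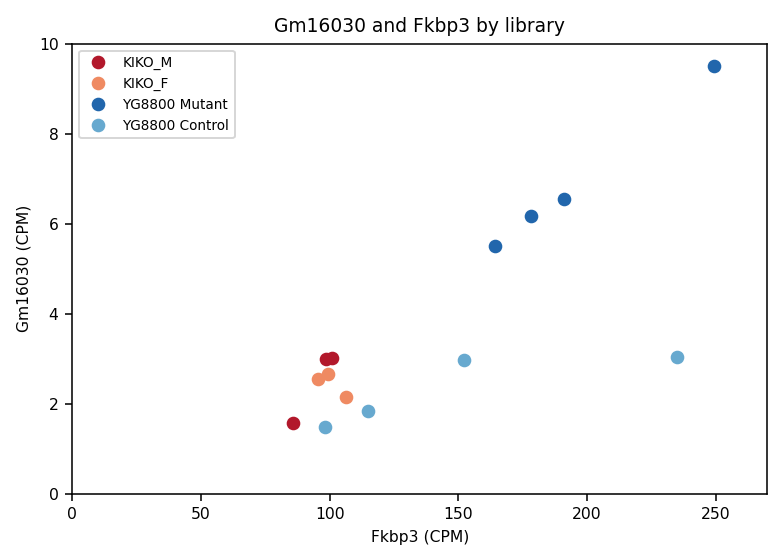
CPM of Gm16030 (vertical) against CPM of Fkbp3 (horizontal) in each of the 14 libraries (points), both axes linear from 0. The 6 KIKO-700 libraries sit together at 85.6 to 106.4 CPM of Fkbp3 and 1.56 to 3.02 CPM of Gm16030, below the 4 Mutant libraries on both axes, and the Control libraries run along the bottom.

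Of 16 FK506-binding proteins 15 were tested, and 5 were higher and 2 lower in KIKO-700, beside 17.2% and 19.1% of all genes. The higher genes included Fkbp1a at 0.76 (SE 0.16, adjusted p = 0.00189), which binds the ryanodine receptor of muscle, and Fkbp8 at 0.69 (SE 0.18, adjusted p = 0.0071), a protein of the mitochondrial outer membrane. The median over the 15 genes was 0.20. Among 13 folding factors of the endoplasmic reticulum, where the Fkbp2 protein resides, 0 were higher and 5 lower in KIKO-700. The shares over all genes are the same 17.2% and 19.1%. The lower genes with the smallest p were the chaperone Hsp90b1 at −0.92 (SE 0.17, adjusted p = 0.000521), the disulfide isomerases Pdia3 at −1.08 (SE 0.22, adjusted p = 0.00125) and Pdia4 at −1.65 (SE 0.34, adjusted p = 0.00147), and the stress-induced factor Manf at −1.09 (SE 0.22, adjusted p = 0.00126). The median of that list was −0.44.

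Churc1 had 0.601, 4.998 and 5.25 CPM in KIKO_M hearts and 3.10, 0.999 and 1.40 CPM in KIKO_F hearts. It had 13.7, 10.7, 11.5 and 8.74 CPM in YG8800 Mutant hearts and 3.28, 2.55, 2.39 and 6.34 CPM in YG8800 Control hearts. Of the KIKO-700 hearts, 3 lay inside the Control range and 3 below every YG8800 heart. The log2 fold change of KIKO-700 was −2.11 (SE 0.42) over Mutant and −0.49 (SE 0.45) over Control. Over the mean of both groups it was −1.30 (SE 0.38), and −0.80 in KIKO_M hearts alone.

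The spread of Churc1 among the KIKO-700 hearts was wide. The highest was 8.73 times the lowest, on 56 counts in KIKO_M 3 and 5 counts in KIKO_M 1. Exact Poisson intervals, which cover counting error only, ran from 0.195 to 1.40 CPM in KIKO_M 1 and from 3.97 to 6.82 CPM in KIKO_M 3 and do not overlap. The SD within the sexes was 1.21 on the log2 scale, larger than in 99.5% of the 4394 genes within 2-fold of its level, where the median was 0.34. The lowest heart, at 0.601 CPM, and the highest, at 4.998 and 5.25 CPM, were male, while the females ran from 0.999 to 3.10 CPM. The log2 fold change of KIKO_M over KIKO_F was 0.99 (SE 0.58, 95% interval −0.24 to 2.22). It was 1.60 without KIKO_F 1 and 0.59 without KIKO_M 3. Fntb, which starts within the first bases of Churc1 on the same strand, did not share this spread, at 4.44 to 5.62 CPM in KIKO-700, 4.32 to 8.67 CPM in Mutant and 4.07 to 5.83 CPM in Control. Its log2 fold change of KIKO-700 over the mean of the YG8800 groups was −0.11 (SE 0.20, adjusted p = 0.685).

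Meig1 (chromosome 2, 3409043 to 3422648, minus strand) had 2.41, 3.16 and 3.37 CPM in KIKO_M hearts and 1.55, 1.55 and 1.53 CPM in KIKO_F hearts. It had 3.41, 5.18, 2.497 and 4.37 CPM in YG8800 Mutant hearts and 0.847, 1.04, 1.52 and 1.33 CPM in YG8800 Control hearts. The 3 males were above the 3 females, 2 males lay inside the Mutant range, and the other KIKO-700 hearts lay in the gap, the females close above the highest Control heart. With upper-quartile factors the 3 females lay inside the Control range. These levels rest on 12 to 36 counts a library in KIKO-700. The log2 fold change of KIKO_M over KIKO_F was 0.94 (SE 0.38) at an unadjusted p of 0.0214 in edgeR, and it did not pass after adjustment (adjusted p = 0.9999). Against the mean of the YG8800 groups it was 0.03 (SE 0.24, 95% interval −0.48 to 0.53). Of 8 genes listed as Meig1 partners and ciliary genes only 2 were tested, Meig1 and Cfap20. Cfap20, a protein of the ciliary axoneme, was lower in KIKO-700 (log2 fold change −2.43, SE 0.68, edgeR adjusted p = 0.0152). Its level was low and the ranges overlap, at 0 to 3.28 CPM in KIKO-700 and 0.424 to 9.35 CPM in the YG8800 hearts.

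Against the mean of the YG8800 groups edgeR called 4733 of 13023 genes (36.3%), 2240 higher and 2493 lower in KIKO-700. With KIKO_F alone it called 22.9% and with KIKO_M alone 19.7%. The choice of the 7 genes favours such calls, so no count of them is given. Among the 7, Synpo was the one whose 6 KIKO-700 hearts all lay outside the range of both YG8800 groups together. With library size alone the split was 2555 higher and 1632 lower. The fold change of Synpo kept its direction under all 3 other scalings, and it was 1.51 with a term for the sex read from Xist and Y-linked genes.

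Markers of other cells moved with the same comparison, in which 17.2% of all genes tested were higher and 19.1% lower. All 5 erythroid markers were higher in KIKO-700, with a summed level of 13500 to 19460 CPM, against 1305 to 4425 CPM in Mutant and 2028 to 5753 CPM in Control. The 5 atrial markers summed to 1592 to 2370 CPM in KIKO-700, 99.5 to 1426 CPM in Mutant and 460 to 1203 CPM in Control, with 1 of 5 higher in edgeR's test, and Bmp10 at 0 in at least one YG8800 library. The 5 endothelial markers summed to 271 to 380 CPM in KIKO-700, 151 to 208 CPM in Mutant and 170 to 238 CPM in Control (2 higher), and the 5 macrophage markers to 363 to 562 CPM in KIKO-700, 237 to 339 CPM in Mutant and 297 to 411 CPM in Control (3 higher). The 5 fibroblast markers summed to 438 to 668 CPM in KIKO-700, 791 to 1413 CPM in Mutant and 763 to 1274 CPM in Control (3 lower). Of 5 smooth muscle and pericyte markers 2 were higher and 1 lower, and of 3 Schwann markers tested 2 were higher. The part of all these markers in the values of the 7 genes was not tested. Fewer cells of a type and less RNA per cell cannot be told apart in whole tissue.

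**Figure D3:**
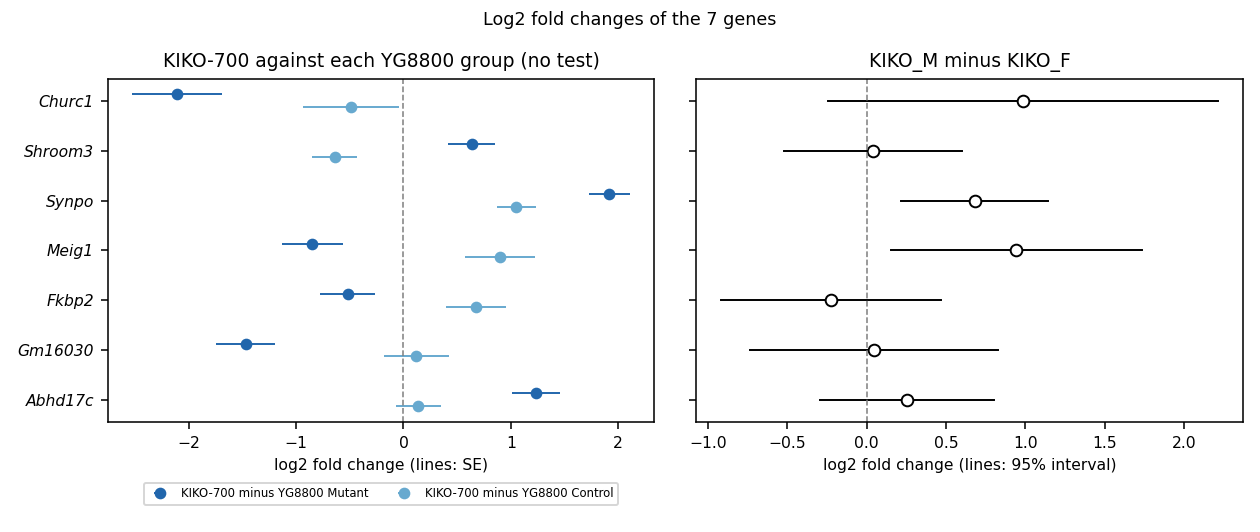
Log2 fold changes (points) of the 7 genes for KIKO-700 minus YG8800 Mutant and minus YG8800 Control (left, lines are SE, a description with no test) and for KIKO_M minus KIKO_F (right, lines are 95% intervals). On the left Synpo is right of 0 against both groups (1.92 and 1.05), while Gm16030 and Abhd17c lie near 0 against Control (0.12 and 0.14).

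The second question was whether the genes differ between KIKO-700 males and females, in libraries that the gap did not use. None of the 7 passed the adjusted threshold, and edgeR called 0 of 13023 genes (0.00%), with 186 genes at an unadjusted p under 0.05. DESeq2 called 1 gene and limma-voom 0. On simulated counts, edgeR recovered 12 of 100 genes changed by 1 in log2 between these groups, and 75 of 100 changed by 2. Most changes of 1 were thus missed. In the fit of all 14 libraries, sex-linked genes were not called either. The YG8800 groups in the same fit mix both patterns of Xist, whose part in this was not tested. In a fit of the 6 KIKO-700 libraries alone, chosen after seeing the data, 8 of 11801 genes were called (0.0678%), and none of the 7 was among them. The sex-linked genes Xist (log2 fold change −5.18, edgeR adjusted p = 9.76e-08), Eif2s3y (6.03), Ddx3y (5.69) and Uty (4.32) were called in that fit (named with their values known). There Synpo stood at 0.67 (SE 0.18, unadjusted p = 0.00195, edgeR adjusted p = 0.396) and Meig1 at 0.94 (SE 0.31, unadjusted p = 0.00857, adjusted p = 0.547). These are the 2 genes of the 7 whose males and females did not overlap, both with the males higher, where 12.5% of all genes had such a separation and 5.84% had it with the males higher. Markers of adipocytes (4 genes) summed to 7.23 to 10.5 CPM in KIKO_M and 25.4 to 36.1 CPM in KIKO_F, and those of Schwann cells (4 genes) to 7.46 to 12.8 CPM in KIKO_M and 13.6 to 15.99 CPM in KIKO_F. None of them was called in the fit of 14 libraries, and in the fit of 6 the adipocyte gene Cfd was (log2 fold change −1.88, SE 0.24, edgeR adjusted p = 0.00622). The liver genes Alb (albumin, −3.79, SE 0.48, adjusted p = 0.00622) and Fgb (a fibrinogen chain, −4.20, SE 0.66, adjusted p = 0.0322) were also lower in KIKO_M in the fit of 6 (named with their values known). The part of these genes and markers in the values of Synpo and Meig1 was not tested.

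Each KIKO-700 heart was also placed on a scale set by the YG8800 hearts, where 1 is the Mutant mean and 0 the Control mean of log2 CPM. The KIKO-700 mean lay at −1.21 for Synpo, −0.38 for Churc1 and −0.20 for Abhd17c, all beyond the Control mean. It lay at 0.08 for Gm16030, next to the Control mean, and near the middle for Shroom3 (0.47), Meig1 (0.51) and Fkbp2 (0.55). In single hearts Churc1 ran from −1.28 to 0.37, and Meig1 from 0.22 to 0.24 in females and 0.61 to 0.91 in males. The KIKO-700 mean was thus nearer Control for Synpo, Churc1, Abhd17c and Gm16030, and close to the middle for the other 3.

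**Figure D4:**
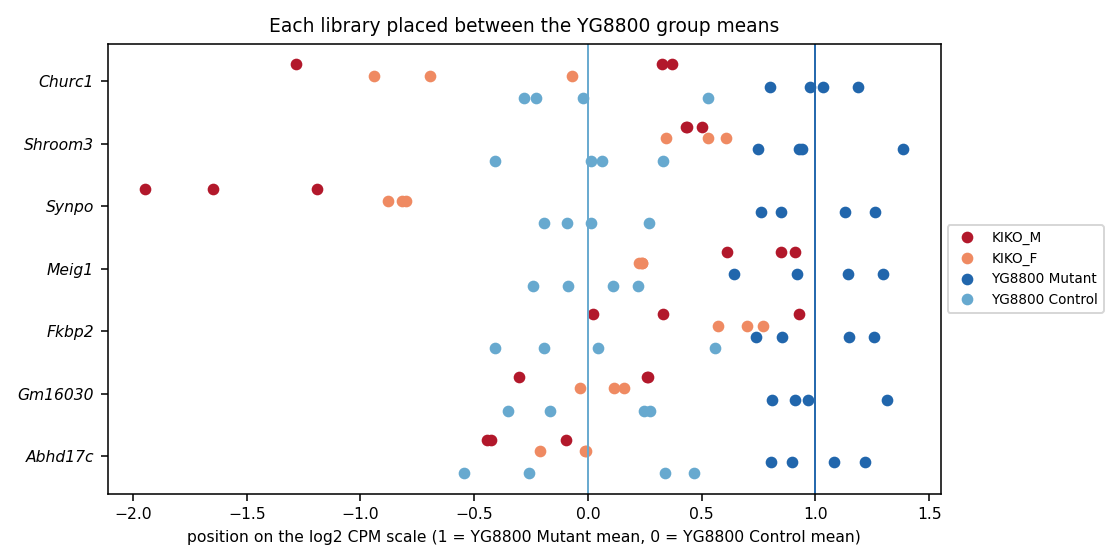
Position of each library (points) on the log2 CPM scale of each gene, where 1 is the YG8800 Mutant mean and 0 the YG8800 Control mean. KIKO_M and KIKO_F libraries lie left of 0 for Synpo (−1.95 to −0.80), around 0 for Gm16030 and Abhd17c, and between the lines for Shroom3 (0.34 to 0.61).

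The same scale was applied to every tested gene whose Mutant and Control hearts did not overlap, 500 genes (3.84% of 13023), of which 190 were higher and 310 lower in Mutant. The KIKO-700 mean lay nearer Control in 358 of them (71.6%), with 227 beyond the Control mean, and beyond the Mutant mean in 50. The share nearer Control was 64.21% of the genes higher in Mutant and 76.13% of those lower in Mutant. The median position was 0.11. The 7 genes are among the 500. All directions are those of the labels, which are not settled. These shares compare means from mice of 2 lines and carry no test.

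**Figure D5:**
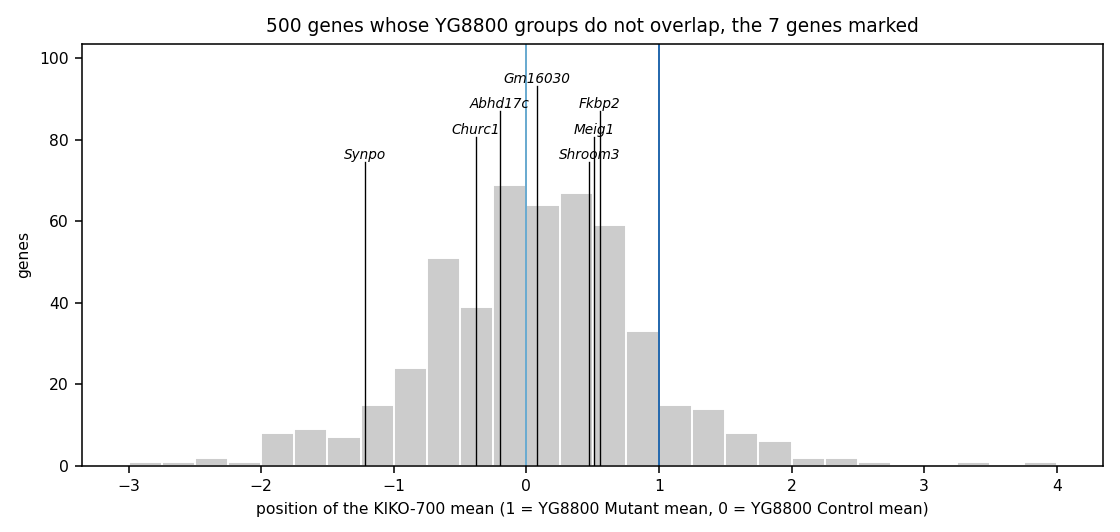
Number of genes (bars, bins of 0.25) by the position of the KIKO-700 mean, where 1 is the YG8800 Mutant mean and 0 the YG8800 Control mean, for the 500 genes whose YG8800 groups do not overlap. Black lines mark the 7 genes, of which Synpo at −1.21 lies in the left tail and the other 6 lie between −0.38 and 0.55.

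The genes most like each of the 7 over the 14 libraries were named by Pearson's r of log2 CPM, as a description over libraries that share the group differences above. For Synpo the first was Cic (r = 0.965). Cic, a transcriptional repressor, averaged 18.6 CPM in KIKO-700, 5.38 CPM in Mutant and 8.18 CPM in Control, the same order as Synpo. For Abhd17c they were Dele1 (0.963), a mitochondrial stress relay, and Cpt1b (0.920), which brings fatty acids into heart mitochondria. Cpt1b averaged 127.5 CPM in KIKO-700, 70.8 CPM in Mutant and 107.1 CPM in Control. For Fkbp2 they were Usmg5 (0.950), a subunit of ATP synthase, and Dnajc19 (0.948), of the mitochondrial import motor, and Usmg5 averaged 449.0 CPM in KIKO-700, 723.7 CPM in Mutant and 284.8 CPM in Control. For Churc1 they were the pseudogene Gm9493 (0.904) and Rab23 (0.893), both at about 1 CPM in KIKO-700. The other pairs were Vps4b (0.893) and Ppp3cb (0.874) for Shroom3, Accs (0.907) and Thap12 (0.877) for Gm16030, and Atp23 (0.826) and Hsd11b1 (0.813) for Meig1.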

How the data were processed

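Hearts of 14 mice were read as Lexogen QuantSeq 3′ FWD libraries (single-end, 86 bp). The authors deposited whole-number counts of reads per Ensembl gene, 1 library per file, without normalization. The methods name ShortRead, Rsubread and featureCounts with strand on GRCm38, but STAR 2.5.0a and HTSeq 0.6.1 stand in the processing notes of the submitters, and both accounts were not reconciled. Of 54532 identifiers, 54409 were matched to GENCODE M21 symbols. Copies of 1 molecule were not removed here, so intervals cover counting error only.

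Groups came from the labels. Low genes were removed by filterByExpr (R 4.3.3), and TMM-scaled counts were fitted in 1 robust quasi-likelihood model of edgeR 4.0.16 over 14 libraries (biological coefficient of variation 0.296), with Benjamini-Hochberg adjustment over 13023 genes at 0.05. The study names limma, which was an alternative. The tested contrasts were KIKO-700 minus the mean of both YG8800 groups, which for genes chosen by a Mutant and Control gap contains a part of that gap, and KIKO_M minus KIKO_F. Log2 CPM used a prior count of 2. The 7 genes and the lists were chosen with earlier results of these data known. Besides them, the text names overlapping and neighbouring genes, the 2 genes most correlated with each, and up to 4 called genes of each list by smallest p, with exceptions said. Synpo2, Actn2, Abhd17a, Abhd17b and Bmp10 were also named outside that rule. Alternatives were DESeq2 1.42.0, limma-voom (limma 3.58.1), factors by RLE or upper quartile, no factors (library size alone), no filter on low genes or a minimum of 10 counts per library, a replicate block, each library left out, a sex term, Control 2 and 3 left out together, and mitochondrial DNA genes, pseudogenes and Gm-named genes left out. The code was tested on simulated data. Sequences are from GRCm38 and RefSeq (GRCm38.p6). The values of the gene that both lines target, and of a few genes that the rule would name, are not reported here.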

Additional observations from a re-analysis of the deposited data

How the results depend on the processing

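Synpo kept its direction in KIKO-700 over the mean of the YG8800 groups under all 27 alternatives run (log2 1.14 to 1.82). Abhd17c, Churc1 and Gm16030 also kept their direction there under the alternatives run. None of these values carries a test, since the gap that chose the genes is a part of them. Shroom3, at 0.00, turned its sign with RLE factors (0.0027), DESeq2 (0.00014), limma-voom (0.0154), library size alone (0.0871), the minimum of 10 counts (0.0014), no filter (0.0296), without Control 2 and 3 together (0.12) and with KIKO_M alone (0.0191), and ran from −0.0691 to 0.0986 with each library left out. Meig1 turned with upper-quartile factors (−0.0064), the sex term (−0.0423) and KIKO_F alone (−0.45), and ran from −0.0507 to 0.108 with each library left out. Fkbp2 turned with KIKO_M alone (−0.0347) and ran from −0.0941 to 0.233. In KIKO_M over KIKO_F, Gm16030 turned with limma-voom (−0.0017) and ran from −0.11 to 0.29 with each library left out, and Shroom3 from −0.0295 to 0.142. None of the KIKO_M over KIKO_F values passed a threshold.

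KIKO_F alone and KIKO_M alone, against the mean of the YG8800 groups, gave 2984 and 2562 called genes, beside 4733 for both, from 3 KIKO-700 libraries each. Leaving out each library gave 3591 to 5619. KIKO_M over KIKO_F gave 1 gene with library size alone, 3 with no filter, 1 with DESeq2, 1 without mitochondrial DNA genes, pseudogenes and Gm-named genes, 8 with the KIKO-700 libraries only, and 0 with each library left out. The separated genes numbered 306 with a mean of at least 5 CPM, where 76.8% were nearer Control, and 79.45% were with library size alone. With library size alone the share was 55.56% of the genes higher in Mutant and 84.62% of those lower in Mutant. The cause of these changes was not tested. Replicate numbers did not pair libraries (correlations of −0.205 to 0.226), and the replicate block gave 4970 and 0 calls. The levels of Churc1, Meig1 and Gm16030 in KIKO-700 rest on 5 to 56 counts a library, which limits their precision.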
